A study of Homo sapiens with 24 samples.

Results

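A set of 44 genes of ribosome biogenesis and the nucleolus was followed in SET2, an established human megakaryoblastic cell line whose growth depends on JAK2. The members were taken by symbol from a gene-level RNA-seq table. All 44 were found among its 25082 genes, and all 44 passed the filter on low values that left 20154 genes for testing. By role they are 7 proteins of small nucleolar ribonucleoproteins (snoRNPs), 14 assembly factors of the small ribosomal subunit, 15 of the large subunit, 3 proteins of RNA polymerase I transcription and 5 other nucleolar proteins.

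The 24 libraries of poly(A) RNA form 8 groups of 3. Naive SET2 cells were given INC424 (ruxolitinib) for 48 h, INC424 for 4 h or the solvent DMSO for 4 h. Persistent lines had been kept growing in BMS911543, in CYT387 (momelotinib), in INC424 or in SAR302503 (fedratinib), all type I JAK inhibitors, which compete with ATP for the active form of the kinase. The reference for these lines was naive cells without inhibitor. All groups were grown in RPMI medium with fetal calf serum. The labels give no dose, do not say whether a line is a clone, and do not say whether the 3 libraries of a group came from separate cultures, so the p-values measure only the spread between these libraries. No DMSO group of 48 h is in the design, so duration of INC424 and time in culture cannot be told apart at 48 h.

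A ribosome is built in the nucleolus, where RNA polymerase I transcribes a long precursor that is cut and modified into the rRNAs of both subunits. Box C/D and box H/ACA snoRNPs guide the methylation and pseudouridylation of this precursor, while assembly factors fold it around ribosomal proteins and leave before export. Many genes of these factors are textbook targets of MYC, a growth-promoting transcription factor that binds DNA with MAX at the E-box CACGTG. Growth signals are among the inputs that set their level.

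Promoter sequences are shown because the members moved together under INC424 and this hexamer is the letter pattern tied to their known regulator. RefSeq promoter windows of GRCh38.p14, of 250 bases before to 50 after a transcription start, matched 37 of the 44 members in 46 windows; NOP58, NOLC1, RRP12, BOP1, RRS1, RRP1B and DDX18 had no entry in the table used. The hexamer CACGTG, which reads the same on both strands, was present in 15 of 46 member windows (32.6%, 95% Wilson interval 20.9 to 47.0%). It was present in 8.85% of the 15710 windows of all genes tested and in 7.26% of all 35116 windows in the table. The 15710 windows belong to 10734 of the 20154 genes tested, and the others had no window under their symbol. Among other genes of ribosome assembly it was in 29.9% of 97 windows, and among genes of ribosomal proteins in 5.13% of 78. By role, 6 of 13 small subunit genes, 4 of 11 large subunit genes, 3 of 5 other nucleolar genes, 2 of 5 snoRNP genes and 0 of 3 polymerase I genes held it.

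The 4 members below had the largest falls at 48 h among those holding the hexamer; each line gives 100 bases before to 50 after the start on the plus strand, with CACGTG in capitals. The windows are chr2:68157788-68157937 for PNO1, chr10:68956547-68956696 for DDX21, chr1:19251705-19251854 for MRTO4 and chr12:101280005-101280154 for UTP20.
PNO1: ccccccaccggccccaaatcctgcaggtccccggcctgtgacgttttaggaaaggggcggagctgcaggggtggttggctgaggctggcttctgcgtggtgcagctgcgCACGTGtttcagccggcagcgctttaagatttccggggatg
DDX21: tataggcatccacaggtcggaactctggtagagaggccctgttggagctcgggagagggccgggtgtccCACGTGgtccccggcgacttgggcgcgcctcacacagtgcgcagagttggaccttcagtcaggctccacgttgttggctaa
MRTO4: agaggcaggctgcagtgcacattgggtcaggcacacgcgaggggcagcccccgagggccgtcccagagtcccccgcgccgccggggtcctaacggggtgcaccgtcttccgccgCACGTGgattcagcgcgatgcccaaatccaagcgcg
UTP20: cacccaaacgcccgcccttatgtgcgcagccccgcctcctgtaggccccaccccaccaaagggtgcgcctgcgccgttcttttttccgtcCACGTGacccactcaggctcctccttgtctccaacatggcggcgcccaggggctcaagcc
The hexamer begins at base 10 after the start in PNO1 and base 15 after the start in MRTO4, and 31 bases before the start in DDX21 and 10 before it in UTP20. Of the 15 matches in member windows, 11 (73.3%) began after the start, against 9.74% of the 1561 matches in windows of all genes tested. The count therefore depends on the window. In the 250 bases before the start alone, 6.52% of member windows held CACGTG and 7.86% of windows of all genes tested, while the looser letters CANNTG, which include CACGTG, were in 80.4% and 62.2% of whole windows. These matches describe letters only. The fitted log2 difference of INC424 48 h from DMSO had a median of -1.0 over the 15 members with CACGTG and -0.81 over the 22 without it. The ranges overlapped, from -1.62 to 1.14 with it and from -1.45 to 0.02 without it. LYAR, which rose, holds the hexamer in 1 of its windows. A link between the hexamer and the fall was not tested.

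Library totals were 21770721 to 36160750 reads, and the lowest normalised count of a member given with its value in every library was 293. The megakaryocytic and erythroid markers ITGA2B, GATA1, TAL1, NFE2 and KLF1 were high in every group, while the platelet factor PF4 was at or near 0 outside the INC424 persistent line. CYT387 persistent library 2 stood apart. Its 10 squamous markers took 0.516% of the signal, against 0.00256% and 0.000746% in libraries 1 and 3 and at most 0.108% elsewhere, and its 9 stromal, vessel and macrophage markers in the table took 0.276%, against at most 0.0269% elsewhere. The 44 members took 0.445% of its signal, against 0.625% and 0.660% in libraries 1 and 3. Counts of members are therefore also given from a fit without this library, as are counts by role and for other gene lists where they moved by over 1.5 times, and the part of these other RNAs in the results was not tested. In bulk RNA, fewer cells of one kind and less RNA per cell cannot be told apart.

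The members were highest in DMSO and lowest after 48 h of INC424. The mean log2(normalised count + 1) over the 44 members was 10.88 ± 0.0023 at 48 h of INC424, 11.26 ± 0.016 at 4 h of INC424 and 11.78 ± 0.0078 in DMSO (SD, n = 3 each). In the persistent lines it was 11.40 ± 0.03 for BMS911543, 11.14 ± 0.23 for CYT387, 11.20 ± 0.025 for INC424 and 11.21 ± 0.053 for SAR302503, against 11.28 ± 0.089 in naive cells. Within the short exposures the groups did not overlap on this mean, whereas the lines and naive cells lay close together. Of the 8 group means, DMSO was the highest for 34 members and INC424 48 h the lowest for 28. The 4 h mean lay between the 48 h and DMSO means for 41 of the 44.

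**Figure D1:**
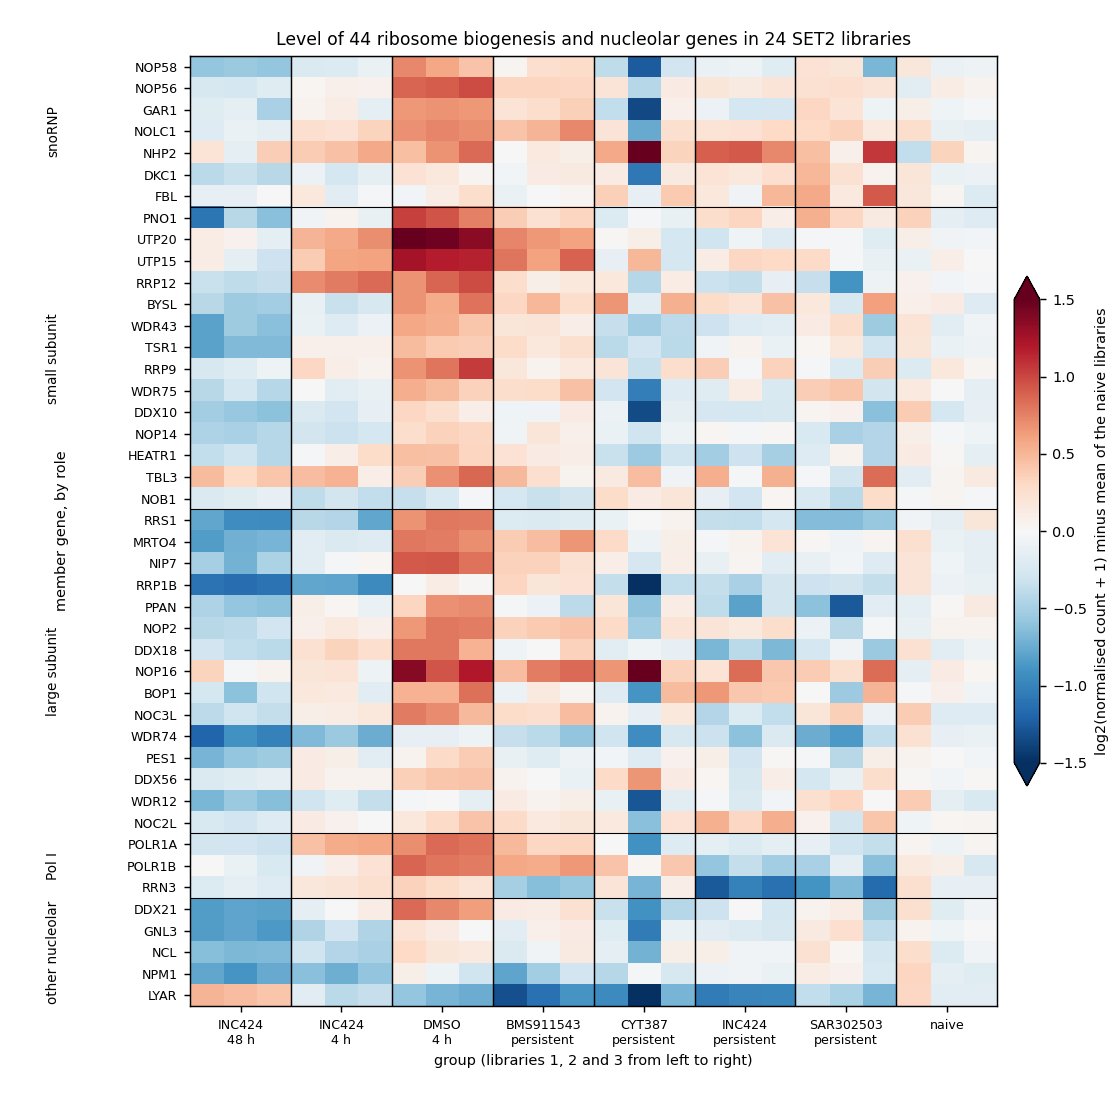
Level of each of the 44 members (down the page, by role, ordered within a role by the 48 h change) in each of the 24 libraries (3 per group, across), as log2(normalised count + 1) minus the mean of the naive libraries. The DMSO columns are mostly red, the INC424 48 h columns mostly blue, and CYT387 library 2 differs from its own group in many members.

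After 4 h of INC424, 0 members were higher and 21 were lower than in DMSO by limma on log2(normalised count + 1), with Benjamini-Hochberg adjustment over all 20154 genes and a threshold of 0.05. Over all genes tested, 4.88% were higher and 3.49% were lower. The median fitted log2 difference of the members was -0.55, against -0.01 over all genes. In 36 members all 3 INC424 libraries were below all 3 DMSO libraries, and in 1, LYAR, all were above. The share of all genes that separated in this way was not counted. The number of members called was 34 (33 lower, 1 higher) without CYT387 library 2, where 9.84% and 6.84% of all genes were higher and lower, and 13 without INC424 4 h library 3.

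After 48 h of INC424, 1 member was higher and 38 were lower than in DMSO, where 17.6% of all genes were higher and 16.4% were lower. The median log2 difference was -0.97, against 0.00 over all genes. In 40 members all 3 INC424 libraries were below all 3 DMSO libraries, a separation that was not counted over all genes. All 21 members that were lower at 4 h were also lower at 48 h, a comparison that uses the same DMSO libraries. FBL, DKC1, NHP2, TBL3 and NOB1 were called at neither time. Without CYT387 library 2, 1 member was higher and 40 were lower at 48 h, the added ones being DKC1 and NHP2. Over all genes that fit called 23.1% higher and 21.5% lower. Compared directly, 48 h against 4 h gave 1 higher and 15 lower members (median -0.37). Over all genes 7.03% were higher and 7.69% lower. Without CYT387 library 2, 1 member was higher and 24 were lower, where 12.8% and 12.7% of all genes were.

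**Figure D2:**
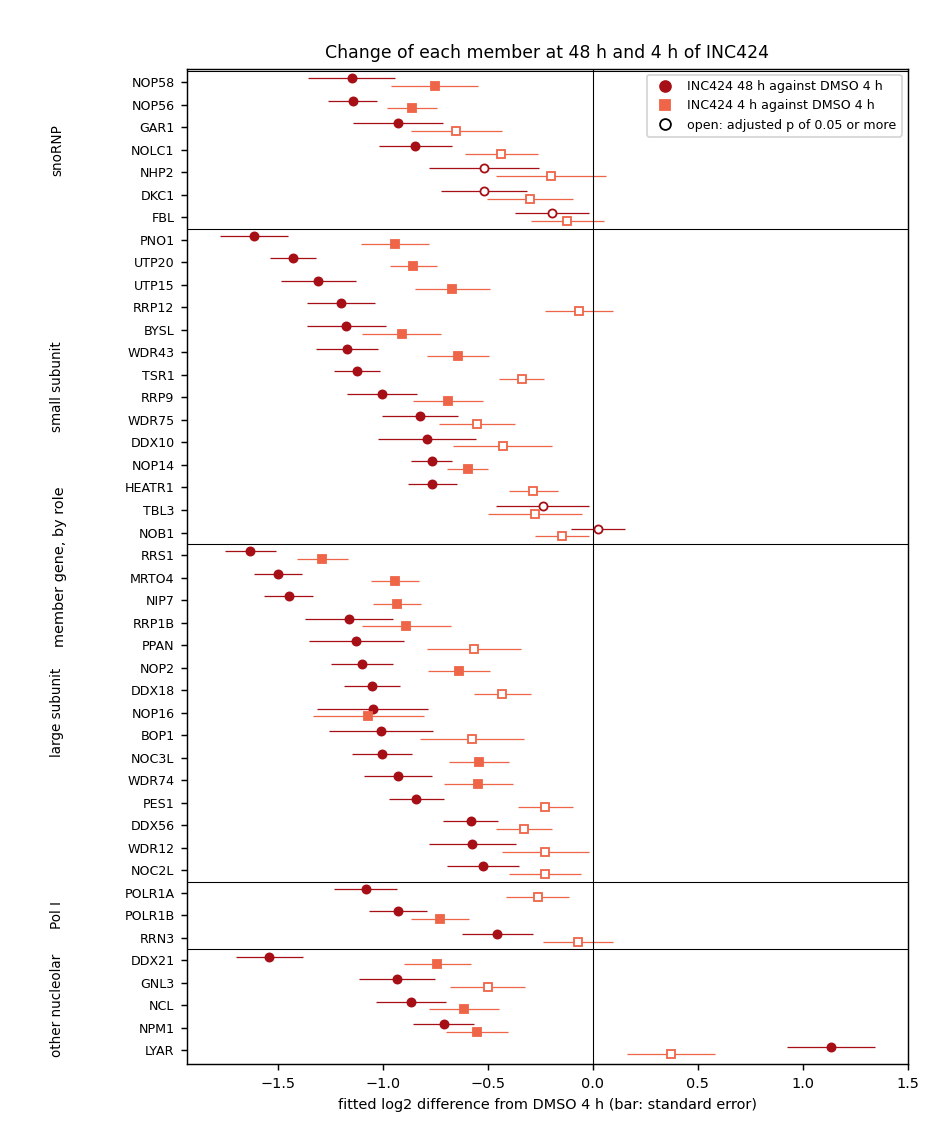
Fitted log2 difference from DMSO 4 h (x axis, with standard error) of each member at 48 h and 4 h of INC424, by role (down the page). Filled symbols passed the threshold of 0.05. At 48 h 38 members are filled to the left of 0 and LYAR alone is filled to the right.

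Among the snoRNP proteins, 4 of 7 fell at 48 h and 2 of 7 at 4 h; without CYT387 library 2 these were 6 and 5. NOP56 and NOP58 are the paired core proteins of box C/D snoRNPs, which carry the rRNA methylase. NOP56 had normalised counts of 4517, 4440.4 and 4704 at 48 h of INC424 and 5421, 5638 and 5564 at 4 h, against 9728, 9999.5 and 10484 in DMSO. The 3 groups did not overlap, and the fitted log2 differences from DMSO were -1.14 ± 0.12 at 48 h (± SE, limma adjusted p = 1.76e-07) and -0.86 ± 0.12 at 4 h (adjusted p = 4.34e-05). NOP58 had 2419, 2456 and 2403 at 48 h and 3092, 3129.7 and 3349.9 at 4 h, against 5952, 5389.9 and 4850.3 in DMSO. Again all 3 groups were separate, with log2 differences of -1.15 ± 0.21 (limma adjusted p = 0.000173) and -0.75 ± 0.21 (adjusted p = 0.0249). The 4 h call of NOP58 was lost without DMSO library 1 or 2 or any INC424 4 h library, with log2 differences between -0.79 and -0.68, and in a fit without trend (adjusted p = 0.0512).

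GAR1, a subunit of the box H/ACA particle, and NOLC1, a chaperone that binds both kinds of snoRNP, fell at 48 h by 0.93 and 0.85 on the log2 scale (limma adjusted p = 0.00186 and 0.000666). The rRNA methylase FBL itself, the pseudouridine synthase DKC1 and its partner NHP2 did not pass at 48 h, with log2 differences of -0.19 ± 0.17, -0.52 ± 0.20 and -0.52 ± 0.26. Without CYT387 library 2, DKC1 and NHP2 were called lower at 48 h (limma adjusted p = 0.000192 and 0.0332), and DKC1 also at 4 h (adjusted p = 0.0443).

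Among the small subunit factors, 12 of 14 fell at 48 h and 7 of 14 at 4 h. PNO1 holds the end of the 18S rRNA together with the nuclease NOB1, which makes the last cut there. PNO1 had 293, 463 and 399.5 normalised counts at 48 h and 598, 644 and 573 at 4 h, against 1263, 1186 and 1045 in DMSO. It stood at 32.6% of the DMSO level at 48 h (log2 -1.62 ± 0.16, limma adjusted p = 1.2e-07) and at 52.1% at 4 h (log2 -0.94 ± 0.16, adjusted p = 0.000549). Its further fall between the times, -0.67 ± 0.16, was no longer called without INC424 48 h library 1, where it was -0.49 (adjusted p = 0.0613). NOB1 itself did not move with PNO1: its log2 differences from DMSO were 0.02 ± 0.13 at 48 h and -0.15 ± 0.13 at 4 h, neither past the threshold.

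UTP20, a large scaffold protein of the early small subunit particle, had 1180.4, 1140.4 and 999 at 48 h and 1554, 1619.9 and 1769.7 at 4 h, against 3141, 3005 and 2795 in DMSO. These groups were stepwise and separate, at log2 -1.43 ± 0.11 (limma adjusted p = 3.21e-09) and -0.86 ± 0.11 (adjusted p = 2.14e-05). RRP12, a factor of subunit export, took another course. Its means were 1799.9 ± 31.6 at 48 h and 3957 ± 199.7 at 4 h, against 4148 ± 431 in DMSO, so that 4 h was close to DMSO (log2 -0.06 ± 0.16, not past the threshold) and 48 h was lower than 4 h by 1.14 on the log2 scale (limma adjusted p = 4.77e-05). TSR1, a GTPase-like factor of late small subunit particles, was at log2 -1.12 ± 0.11 at 48 h and at -0.34 ± 0.11 at 4 h, where it passed without CYT387 library 2 (limma adjusted p = 0.0223) and not with it (adjusted p = 0.0546). BYSL, RRP9 of the U3 snoRNP, NOP14, WDR43 and UTP15 were lower at both times, with log2 differences between -1.31 and -0.77 at 48 h and between -0.91 and -0.60 at 4 h.

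All 15 large subunit factors fell at 48 h and 8 fell at 4 h, or 12 at 4 h without CYT387 library 2. RRS1, which helps to bring the 5S rRNA particle into the young subunit, had the largest change of any member at both times. Its normalised counts were 396, 355 and 353 at 48 h and 512, 503 and 395 at 4 h, against 1084, 1175 and 1169 in DMSO. RRS1 stood at 32.2% of the DMSO level at 48 h (log2 -1.63 ± 0.12, limma adjusted p = 1.79e-09) and at 40.9% at 4 h (log2 -1.29 ± 0.12, adjusted p = 4.43e-07). Both INC424 groups lay below DMSO, and 1 library of 4 h was just below the highest of 48 h. MRTO4, a relative of the ribosomal stalk protein that holds its place during assembly, had 1156, 1253 and 1279.7 at 48 h and 1840.0, 1779 and 1804 at 4 h, against 3570.4, 3514 and 3354 in DMSO. The groups were tight and far apart, at log2 -1.50 ± 0.11 (limma adjusted p = 2.39e-09) and -0.94 ± 0.11 (adjusted p = 9.23e-06).

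NOP16, a nucleolar protein of large subunit particles, had 422, 330.0 and 349 at 48 h and 379.5, 386 and 319 at 4 h, against 869, 648 and 770.2 in DMSO. Both times were below DMSO and overlapped each other, with log2 differences of -1.05 ± 0.27 (limma adjusted p = 0.00374) and -1.07 ± 0.27 (adjusted p = 0.013). Its 4 h call was lost without DMSO library 1 (log2 -0.97) or INC424 4 h library 3 (log2 -0.98). The PeBoW complex, which acts on the precursor of the large subunit rRNAs, fell in all 3 subunits at 48 h, by 1.01 for BOP1, 0.84 for PES1 and 0.57 for WDR12 on the log2 scale, and in 0 of the 3 at 4 h; without CYT387 library 2, BOP1 was called lower at 4 h (log2 -0.58, limma adjusted p = 0.0426). NIP7 and the rRNA methylase NOP2 were lower at both times, at -1.45 ± 0.12 and -1.10 ± 0.15 at 48 h.

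For RNA polymerase I, 3 of 3 members fell at 48 h and 1 of 3 at 4 h, or 2 of 3 at 4 h without CYT387 library 2. POLR1A, the largest subunit of the enzyme, had 4606, 4559 and 4459 at 48 h and 7547, 8169.7 and 8353 at 4 h, against 9059, 10072 and 9769 in DMSO. Its 4 h libraries lay below DMSO but did not pass the test (log2 -0.26 ± 0.15, limma adjusted p = 0.343; 0.0343 without CYT387 library 2), while 48 h was at log2 -1.08 ± 0.15 (adjusted p = 7e-06). POLR1B, the second subunit, had 1268, 1187 and 1086 at 48 h and 1229.7, 1361 and 1483 at 4 h, against 2329.8, 2223 and 2178 in DMSO. Here the 2 INC424 times overlapped, and both were below DMSO, at log2 -0.93 ± 0.14 (limma adjusted p = 1.76e-05) and -0.73 ± 0.14 (adjusted p = 0.00134). RRN3, the factor that brings the enzyme to its promoter, had 4894, 5063 and 4912 at 48 h and 6319.5, 6449.8 and 6629 at 4 h, against 7119.6, 6781 and 6488 in DMSO. Its 48 h fall of -0.45 ± 0.17 (limma adjusted p = 0.0399) was lost under TMM scaling (adjusted p = 0.0583), upper-quartile scaling (0.071), a fit without trend (0.0631) and without any 1 of the 6 libraries compared (0.0624 to 0.114). RRN3 has near-identical copies in the genome, between which reads may be split.

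Among the other nucleolar proteins, 4 of 5 fell and 1 rose at 48 h, and 3 fell at 4 h; without CYT387 library 2, 4 fell and 1 rose at 4 h. DDX21, an RNA helicase of rRNA transcription and processing, had 4409, 4548 and 4507 at 48 h and 7162, 7884 and 8492 at 4 h, against 14181, 13012 and 12125 in DMSO. The groups were separate, at 34.3% of the DMSO level at 48 h (log2 -1.54 ± 0.16, limma adjusted p = 1.87e-07) and 59.8% at 4 h (log2 -0.74 ± 0.16, adjusted p = 0.00452). The abundant proteins NCL (nucleolin) and NPM1 (nucleophosmin) fell by 0.87 and 0.71 on the log2 scale at 48 h and by 0.61 and 0.55 at 4 h. NPM1 also has near-identical copies in the genome. GNL3 (nucleostemin), a GTPase of proliferating cells, fell by 0.93 at 48 h.

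LYAR moved the other way. It is a nucleolar zinc finger protein that also binds the gamma-globin promoter in erythroid cells. LYAR had 4363, 4226 and 4111 at 48 h and 2743, 2327 and 2417 at 4 h, against 2057, 1892 and 1831 in DMSO. The groups did not overlap, with 4 h between the others, and 48 h stood at 219.9% of the DMSO level (log2 1.14 ± 0.21, limma adjusted p = 0.000212), with 0.37 ± 0.21 at 4 h (adjusted p = 0.345; 0.044 without CYT387 library 2). The difference between the times, 0.77 ± 0.21 (adjusted p = 0.0153), was lost without INC424 48 h library 1 (0.0558) or INC424 4 h library 2 or 3 (0.0621 and 0.0577).

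**Figure D3:**
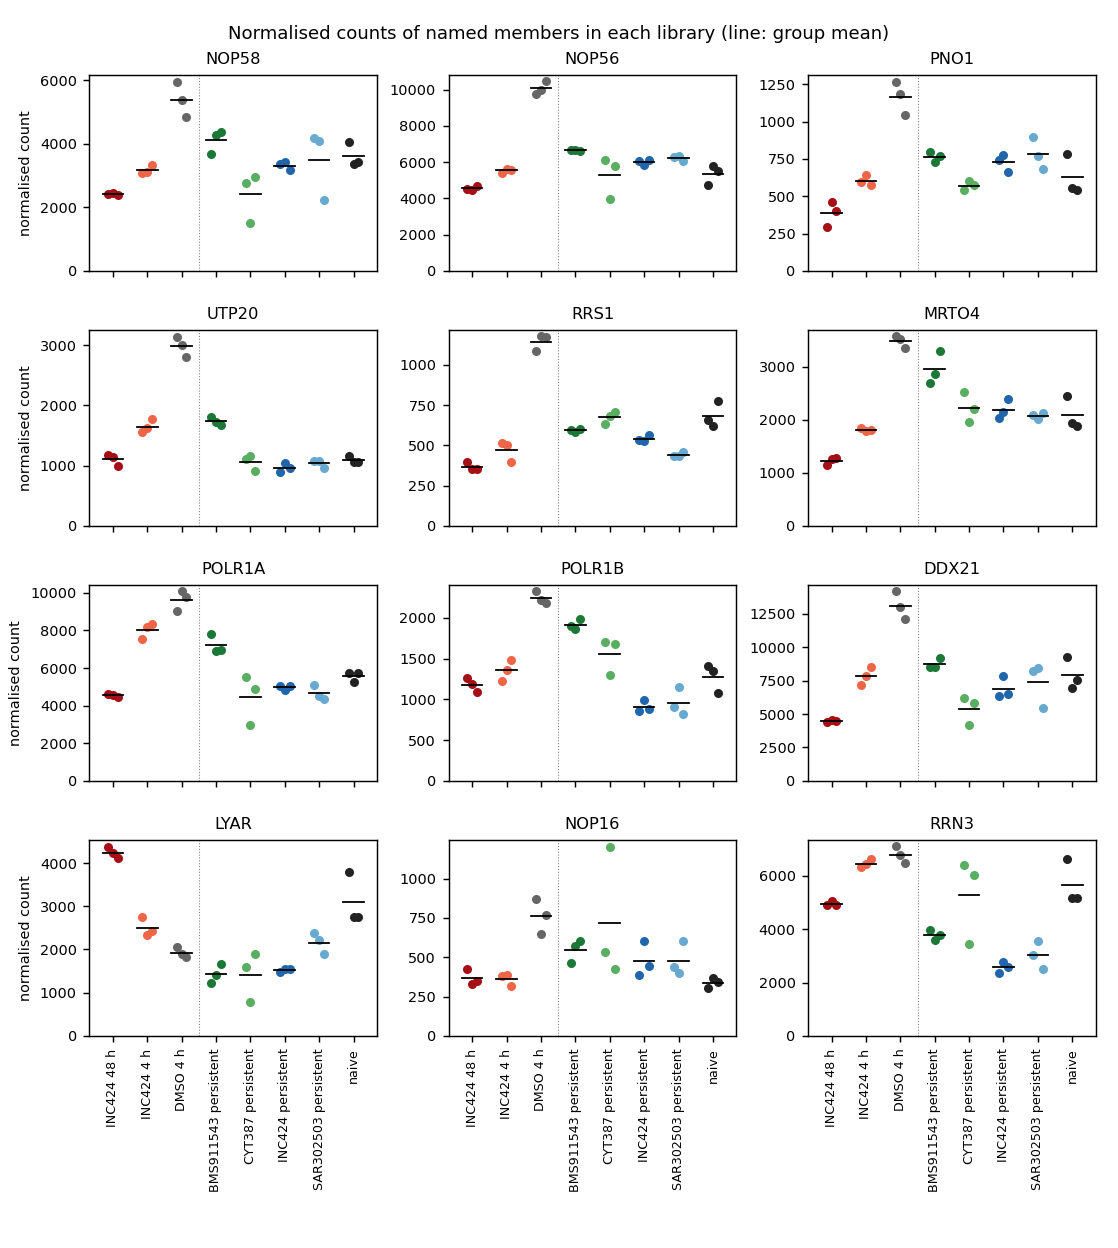
Normalised count (y axis from 0) of 12 members in each library of the 8 groups (x axis; dots are libraries, lines are group means). In every panel but LYAR the DMSO group has the highest mean, while LYAR is highest at 48 h of INC424 and NOP16 has its highest single value in CYT387 library 2.

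The other genes of the pathway, listed from textbook knowledge, showed how far the change reached. Of 99 further assembly genes, 2 were higher and 68 lower at 48 h (median log2 -0.70), and 0 were higher and 30 lower at 4 h (median -0.40); without CYT387 library 2, 1 was higher and 50 were lower at 4 h. Of the small subunit genes among them, 33 of 39 were lower at 48 h, with LTV1 at -1.66 ± 0.27, UTP14A at -1.33 ± 0.20 and UTP11L at -1.21 ± 0.17. Of the large subunit genes, 27 of 38 were lower, led by URB2 at -1.68 ± 0.14, RRP15 at -1.53 ± 0.15 and MAK16 at -1.53 ± 0.21, and 1, GLTSCR2, was higher at 1.21 ± 0.22. Of 11 snoRNP genes 4 were lower, or 8 without CYT387 library 2, with the assembly factors NUFIP1 at -1.11 ± 0.19 and SHQ1 at -1.10 ± 0.19. Of 11 polymerase I genes 4 were lower, among them TWISTNB, POLR1E and POLR1C at -1.25 ± 0.20, -0.89 ± 0.15 and -0.64 ± 0.12, and POLR1D was higher.

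Many genes of the ribosomal proteins themselves were higher at 48 h than in DMSO. Of 79 cytosolic ribosomal protein genes, 31 were higher and 1 lower at 48 h of INC424 than in DMSO (median log2 0.47), and 1 was higher and 2 lower at 4 h (median -0.11). Set against naive cells, 6 were higher and 14 lower at 48 h (median 0.10). Without CYT387 library 2 these were 1 and 4 at 4 h against DMSO and 10 and 22 at 48 h against naive cells. RPL28 reached 26036 ± 4126, against 13371 ± 2328 in DMSO (log2 0.96 ± 0.24). RPS26 was the 1 that fell, at -1.04 ± 0.24. These genes have many processed copies in the genome, so reads of single genes are uncertain, and the list varied more between libraries than the members did (SD of its mean log2 level 0.061 at 48 h, 0.18 at 4 h and 0.043 in DMSO).

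**Figure D4:**
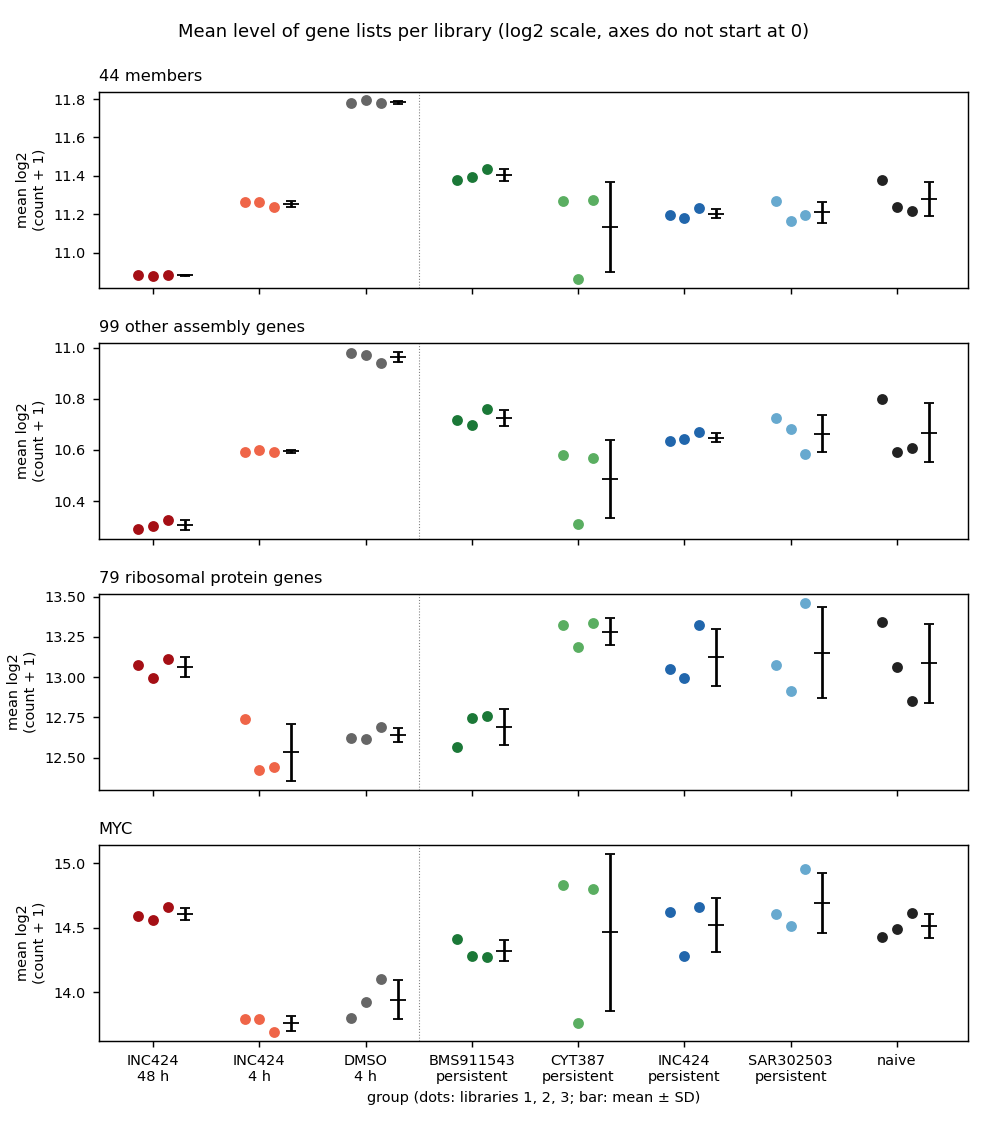
Mean log2(normalised count + 1) per library (y axes, which do not start at 0) of the 44 members, 99 other assembly genes, 79 ribosomal protein genes and MYC, by group (x axis; dots are libraries, bars are mean ± SD). Members and other assembly genes are highest in DMSO and lowest at 48 h of INC424, while ribosomal proteins and MYC are higher at 48 h than in DMSO.

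MYC was measured in every group because of its known link to these genes. Its normalised counts were 24674, 24193 and 25826 at 48 h of INC424 and 14191, 14153 and 13213 at 4 h, against 14255, 15572 and 17532 in DMSO. MYC was thus higher than DMSO at 48 h (log2 0.66 ± 0.19, limma adjusted p = 0.0111) and did not pass at 4 h (log2 -0.18 ± 0.19, adjusted p = 0.687), while the members were lower at both times. In the lines MYC averaged 20502 ± 1130.4 for BMS911543, 23840.4 ± 8624 for CYT387, 23674 ± 3267 for INC424 and 26700.4 ± 4491 for SAR302503, against 23389.9 ± 1535 in naive cells (SD, n = 3 each), and no line passed. Among proteins that pair with MAX and repress at E-boxes, those with the largest changes rose. MXD4 was 1306 ± 56.5 at 48 h and 359 ± 59.5 at 4 h, against 138 ± 49.7 in DMSO, a log2 difference of 3.30 ± 0.33 at 48 h (limma adjusted p = 1.4e-07). MXD1 rose by 1.27 ± 0.13 and MXD3 by 1.39 ± 0.27 at 48 h. Of the 10 genes listed for the MYC network and the p53 response, 7 were higher and 2 lower at 48 h than in DMSO. The 2 lower ones were MGA, another MAX partner, at -0.39 ± 0.15 and MDM2, which limits p53, at -0.84 ± 0.15. In DMSO against naive cells 1 of the 10 was higher and 7 were lower (median log2 -0.66). Set against naive cells, 48 h of INC424 gave 2 higher and 0 lower (median 0.03). MYC itself averaged 24898 at 48 h and 15786 in DMSO, against 23389.9 in naive cells.

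Proliferation genes also fell at 48 h. Of 15 such genes 0 were higher and 14 lower than in DMSO (median log2 -0.79). Together they took 0.283 to 0.292% of the signal at 48 h and 0.471 to 0.483% at 4 h, against 0.510 to 0.516% in DMSO. At 4 h 1 of the 15 was lower, or 2 without CYT387 library 2. Against naive cells, 8 of the 15 were higher and 0 lower in DMSO, and 0 were higher and 6 lower at 48 h. In the INC424 and SAR302503 lines 10 and 10 were higher and 0 lower (median log2 0.64 and 0.71). The members had medians of -0.09 and -0.04 in these 2 lines. In the BMS911543 line 4 of the 15 were higher and 1 lower, and in the CYT387 line 4 and 0. The part of proliferation genes in the change of the members was not tested.

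DMSO-treated cells differed from naive cells in these genes in the absence of inhibitor. Of the 44 members, 26 were higher and 1 lower in DMSO than in naive cells (median log2 0.60). Over all genes 11.4% were higher and 14.6% lower. Without CYT387 library 2, 30 members were higher and 1 was lower, where 17.3% and 20.4% of all genes were. In 32 members all DMSO libraries were above all naive libraries, and in 1 all were below. Here too the share of all genes that separated was not counted. UTP20 had 3141, 3005 and 2795 in DMSO, against 1164, 1058 and 1065 in naive cells, 272% of the naive level (log2 1.44 ± 0.11, limma adjusted p = 4.37e-09). NOP56 had 9728, 9999.5 and 10484 in DMSO, against 4753, 5761 and 5536 in naive cells (log2 0.92 ± 0.12, adjusted p = 5.92e-06). RRS1 and POLR1B were at 0.75 ± 0.12 and 0.82 ± 0.14, and LYAR was the 1 lower member at -0.67 ± 0.21 (adjusted p = 0.0205; 0.107 without naive library 1, 0.058 and 0.0657 without DMSO library 2 or 3). The labels do not say whether naive and DMSO cells were grown or collected together.

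The same DMSO libraries are the reference of the INC424 comparisons, so both sets of differences share them. Of the members, 17 were lower at 4 h than in DMSO and also higher in DMSO than in naive cells, and 25 were lower at 48 h and higher in DMSO than in naive cells. Set against naive cells, 4 h of INC424 gave 3 higher and 4 lower members (median log2 0.01), where 4.81% of all genes were higher and 7.03% lower. The 3 higher ones were UTP20, RRP12 and POLR1A, at 0.59 ± 0.11, 0.78 ± 0.16 and 0.52 ± 0.15, and the 4 lower ones were RRS1, WDR74, RRP1B and NPM1. The number called was 12 without CYT387 library 2, where 22.5% of all genes were called, and 4 without INC424 4 h library 3. At 48 h of INC424, 0 members were higher and 16 lower than in naive cells (median log2 -0.37), where 8.67% of all genes were higher and 11.4% lower. WDR74, RRP1B, RRS1, GNL3, NPM1 and DDX21 had the largest of these falls, between -1.12 and -0.81. Without CYT387 library 2, 1 was higher and 27 were lower, where 15.2% and 17.1% of all genes were.

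In the persistent lines the members as a whole stayed near the naive level. Against naive cells, the mean of the 4 lines gave 1 higher and 4 lower members (median log2 -0.06), where 9.79% of all genes were higher and 12% lower. The number called was 10 (5 higher, 5 lower) without CYT387 library 2, where 14.6% of all genes were higher and 16.2% lower. It was 3 without naive library 1 or without naive library 3. Naive library 1 had a mean log2 level of 11.38 over the members, against 11.24 and 11.22 in naive libraries 2 and 3. The signs of the 4 line differences agreed for 15 members, 7 of them higher and 8 lower in every line. All 4 comparisons share the naive libraries, and agreement of signs was not counted over all genes.

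Members were also counted in each line, and the difference in count between lines was not tested. The BMS911543 line had 5 higher and 4 lower members (median log2 0.15, 10.4% and 14.2% of all genes). Without CYT387 library 2 it had 11 and 4 (16.1% and 19.3% of all genes). The CYT387 line had 2 higher and 9 lower (median -0.11; 11.2% and 11.1% of all genes). Without its library 2 these were 2 and 3 with a median of -0.01 (9.54% and 8.86% of all genes). The number called was 2 without naive library 1 and 6 without naive library 3. The INC424 line had 1 higher and 5 lower (median -0.09, 9.95% and 12.5% of all genes). Without CYT387 library 2 it had 3 and 8 (15.7% and 17.5% of all genes). The SAR302503 line had 1 higher and 6 lower (median -0.04; 8.7% and 10.6% of all genes). It had 5 higher and 10 lower without CYT387 library 2 (14.6% and 16.1% of all genes). In this line 4 members were called without SAR302503 library 1 or without naive library 2.

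**Figure D5:**
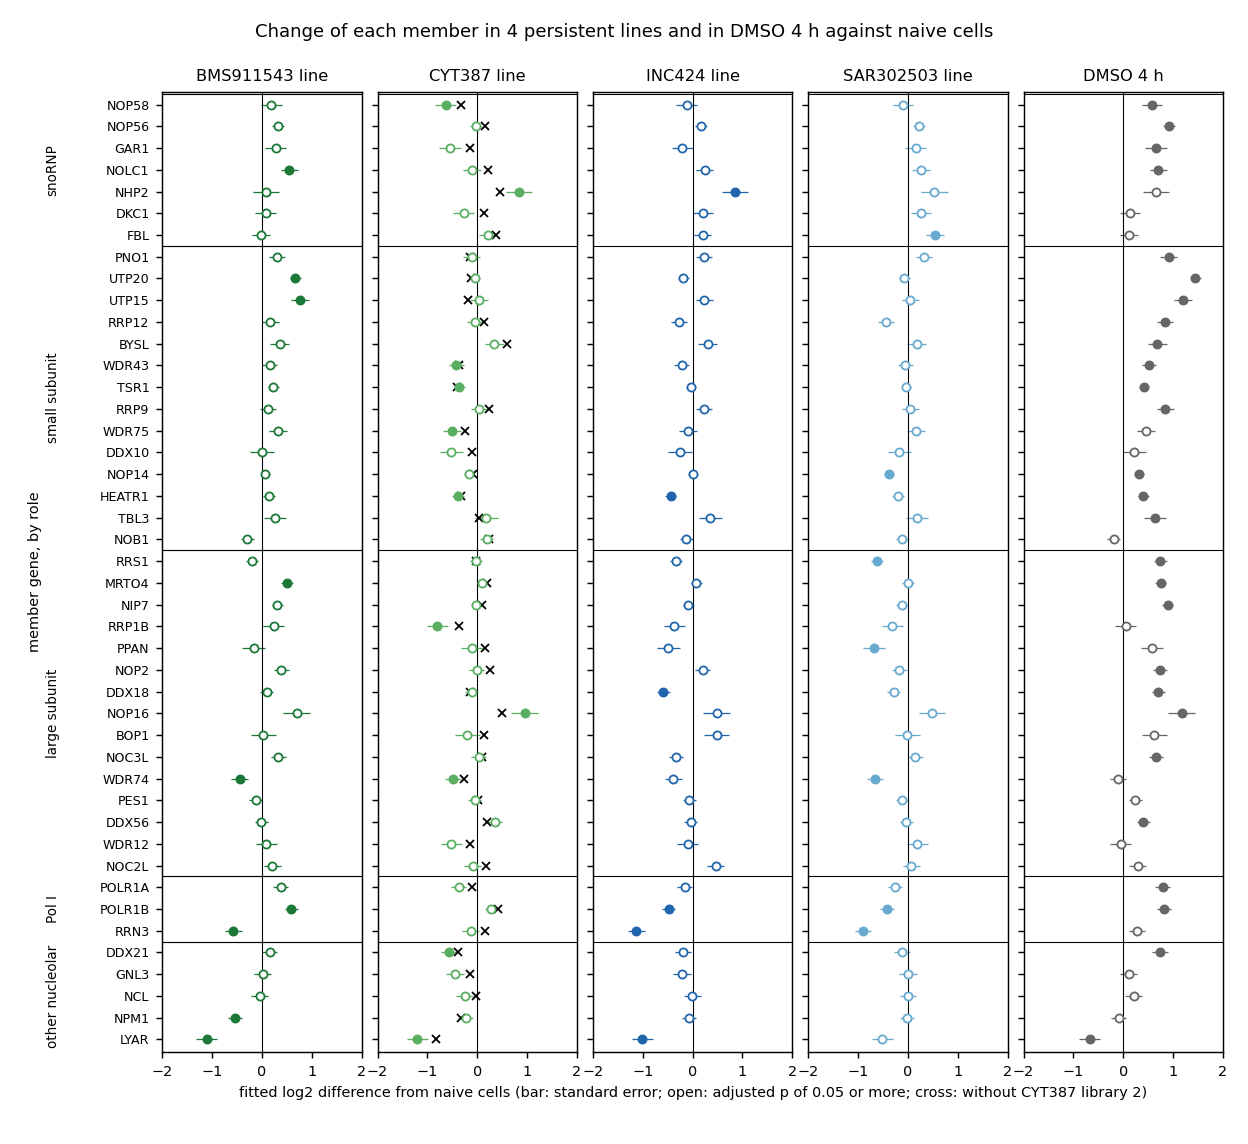
Fitted log2 difference from naive cells (x axes, with standard error) of each member, by role (down the page), in the 4 persistent lines and in DMSO 4 h; filled symbols passed the threshold of 0.05, and crosses give the CYT387 values without library 2. In the lines most members lie near 0, with LYAR to the left in every line and RRN3 in 3 of them, while in DMSO most members lie to the right.

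LYAR and RRN3 had the largest mean change in the lines. LYAR had 1235, 1411 and 1663 in the BMS911543 line, 1584, 786 and 1890.3 in the CYT387 line, 1479.9, 1549 and 1551 in the INC424 line and 2379, 2209.8 and 1894 in the SAR302503 line, against 3805, 2757 and 2759 in naive cells. All 12 libraries of the lines were below the 3 naive ones, with a mean log2 difference of -0.96 ± 0.17 (limma adjusted p = 0.000168). The BMS911543, CYT387 and INC424 lines passed singly and the SAR302503 line did not, at -0.51 ± 0.21. LYAR was thus lower in the line kept in INC424 than in naive cells (log2 -1.01 ± 0.21) and higher after 48 h of INC424 than in DMSO (log2 1.14 ± 0.21); against naive cells the 48 h difference was 0.46 ± 0.21, not past the threshold.

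RRN3 had 3966, 3601 and 3779 in the BMS911543 line, 6408, 3461 and 6036 in the CYT387 line, 2349.7, 2783 and 2589 in the INC424 line and 3019.8, 3564 and 2523 in the SAR302503 line, against 6639.9, 5179 and 5168 in naive cells. It was low in 3 lines and, apart from library 2, at the naive level in the CYT387 line. The log2 differences were -0.57 ± 0.17, -0.14 ± 0.17, -1.13 ± 0.17 and -0.90 ± 0.17 in that order of lines, with a mean of -0.69 ± 0.13 (limma adjusted p = 0.000551). WDR74, a factor of large subunit assembly, was the other member called lower in 3 lines, the BMS911543, CYT387 and SAR302503 lines, with a mean of -0.50 ± 0.13 (limma adjusted p = 0.00783). Its CYT387 fall leaned on library 2: WDR74 had 2273, 1457 and 2371 in that line, against 3261, 2560 and 2607 in naive cells. NOP16 was the 1 member higher in the mean of the lines, at 0.65 ± 0.21 (adjusted p = 0.0284), which was lost without any 1 naive library (0.0595 to 0.131). RRS1 was lower at -0.29 ± 0.10 (adjusted p = 0.0301), which was lost without naive library 1 (0.0561) or 3 (0.237).

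The lines also differed from each other, in members and in many other genes. A moderated F test over the 4 lines, which does not use naive cells, called 27 of 44 members and 47.1% of all genes. Without CYT387 library 2 it called 28 members and 54.8% of all genes. Fewer members were called when only the lines were fitted. POLR1B separated the lines most. It had 1897, 1867 and 1989 in the BMS911543 line, 1706, 1294 and 1679 in the CYT387 line, 853, 995 and 883 in the INC424 line and 908, 1151 and 819.9 in the SAR302503 line, against 1408, 1353 and 1078 in naive cells. Against naive cells it was higher in the BMS911543 line at 0.59 ± 0.14 and lower in the INC424 and SAR302503 lines at -0.48 ± 0.14 and -0.42 ± 0.14 (F test over lines, limma adjusted p = 1.64e-06). UTP20 had 1815, 1725 and 1668 in the BMS911543 line, while the other 9 line libraries lay between 891 and 1166, and naive cells had 1164, 1058 and 1065 (F test, limma adjusted p = 6.33e-06). UTP15, NOLC1 and MRTO4 were the other members higher in the BMS911543 line, at 0.76 ± 0.18, 0.55 ± 0.17 and 0.50 ± 0.11. NPM1 was lower there, at -0.54 ± 0.15. NHP2 was higher in the CYT387 and INC424 lines, at 0.84 ± 0.26 and 0.84 ± 0.26; without CYT387 library 2 the CYT387 value was 0.45.

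The other lists were counted against naive cells as well. Of the 99 further assembly genes 16 were higher and 11 lower in the BMS911543 line, where 10.4% and 14.2% of all genes were, and 4 were higher and 17 lower in the CYT387 line, where 11.2% and 11.1% were. Without CYT387 library 2 the CYT387 counts were 4 and 11. In the INC424 line 6 of the 99 were higher and 4 lower, where 9.95% and 12.5% of all genes were. In the SAR302503 line 3 were higher and 3 lower, where 8.7% and 10.6% were. Without CYT387 library 2 these counts were 12 and 12 in the INC424 line and 5 and 8 in the SAR302503 line. Of the 79 ribosomal protein genes 1 was higher and 29 were lower in the BMS911543 line (median log2 -0.34). In the CYT387 line 11 were higher and 1 was lower (median 0.16). The INC424 line had 2 higher and 3 lower, and the SAR302503 line 4 and 4. Without CYT387 library 2 these last counts were 3 and 6 in the INC424 line and 9 and 7 in the SAR302503 line. In DMSO against naive cells, 39 of the 99 were higher and 5 lower, and of the ribosomal protein genes 1 was higher and 34 were lower (median -0.46). RPL13A was at -1.62 ± 0.19 in the BMS911543 line and at -1.84 ± 0.19 in DMSO. These comparisons share the naive libraries, whose ribosomal protein level had an SD of 0.25 on the log2 scale.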

How the data were processed

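Poly(A) RNA of 24 SET2 libraries was sequenced on the Ion Proton, per the labels' protocols. The authors deposited 1 table of normalised counts, a signal made of read counts per gene divided by 1 size factor per library; the submitters' processing notes name BWA 0.7.5.1, HTSeq 0.5.3p3, DESeq 1.10.1, hg19 and GRCh37 without roles. Strand and the handling of reads shared between copies are not given in the sources used here. Values were whole multiples of 1 step per library within 0.01 (100% of values), which gave whole reads; in 3 libraries the step was within 0.01 of 1. Per the labels, 9 libraries were run again or on more lanes but form 1 column each.

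The test needed a value of 10 or more in 3 or more libraries, which left 20154 genes. All 8 groups entered a limma 3.58.1 fit in R 4.3.3 on log2(normalised count + 1), with a mean-variance trend in the empirical Bayes step. Tests were two-sided, p-values were adjusted by Benjamini-Hochberg over these genes within each comparison, and the threshold was 0.05. Fold changes are on that scale, so they understate the change of low genes. The count models of edgeR 4.0.16 and DESeq2 1.42.0 on the recovered reads were alternatives, along with other pseudocounts, filters, scalings, fits and left-out libraries. The test was checked on simulated data.

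The members, roles and lists were chosen with earlier results of these data known. Values per library are given for the 2 members of each role with the largest 48 h change, the 2 with the largest 4 h change and the 2 with the largest mean change in the lines, and for members opposite to the majority. Of other lists, up to 3 genes with the largest called change may be named. Other members, MGA and MDM2 were named after their values were seen. Comparisons of INC424 with naive cells were added after seeing the data. Promoters come from RefSeq (GRCh38.p14), another build than the files', so no coordinates of the files are printed. A gene within that rule is not reported here.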

Additional observations from a re-analysis of the deposited data

Results flagged for a closer look

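The 4 lines differed from each other in 27 of 44 members by the moderated F test (limma, adjusted p under the threshold). This test does not use naive cells, and it called 47.1% of all genes, so differences among lines were not particular to the members. Without CYT387 library 2 it called 28 members and 54.8% of all genes, and it called fewer members when only the lines were fitted. For 9 of the members given with all their values the adjusted p was 1.64e-06 for POLR1B, 6.33e-06 for UTP20, 0.000298 for RRN3, 0.00142 for POLR1A, 0.00234 for RRS1, 0.00408 for MRTO4, 0.00783 for DDX21, 0.0166 for NOP58 and 0.036 for LYAR. POLR1B, UTP20, POLR1A and MRTO4 had their highest line mean in the BMS911543 line, RRN3 and RRS1 in the CYT387 line, and LYAR in the SAR302503 line. The 2 durations of INC424, set against the same DMSO cells, differed in 16 members, 1 higher and 15 lower at 48 h, where 7.03% of all genes were higher and 7.69% lower. Without CYT387 library 2 they differed in 25 members, 1 higher and 24 lower, where 12.8% and 12.7% of all genes were.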

How the results depend on the processing

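The medians over the members kept their direction in every comparison with DMSO. Fitting only the groups compared gave 35 called members at 4 h, 34 at 48 h against 4 h, 15, 0 and 3 in the BMS911543, CYT387 and SAR302503 lines, 3 in the mean of the lines, 10 by the F test, and 11 and 30 at 4 h and 48 h against naive cells. Without the 4 libraries richest in epithelial RNA, a choice made with earlier results known, these were 35 at 4 h, 27 at 48 h against 4 h, 21, 14 and 16 in the BMS911543, INC424 and SAR302503 lines, 15 in the mean of the lines, 14 and 29 at 4 h and 48 h against naive cells, and a CYT387 median of -0.0070. DESeq2 called 14 in the BMS911543 line and the fit without trend 7 in the CYT387 line. The cause was not tested. The number of all genes called also moved between fits: at 4 h it was 1687 in the main fit and 3316 without CYT387 library 2. Shares of all genes are not given beside the counts in this section, so these counts alone do not describe the members. Of the 167 counts under settings that leave out no single library, 148 stayed within 1.5 times, among them edgeR, with 21 at 4 h and 39 at 48 h. Leaving out 1 library at a time gave 13 to 34 called members at 4 h, 36 to 41 at 48 h, 11 to 25 at 48 h against 4 h, 6 to 15, 2 to 16, 4 to 11 and 4 to 15 for BMS911543, CYT387, INC424 and SAR302503 persistence, 3 to 10 in their mean, 21 to 33 by the F test, 20 to 31 in DMSO against naive cells, and 4 to 12 and 13 to 28 at 4 h and 48 h against naive cells. The medians then ran from -0.20 to -0.0070 in the CYT387 line and from -0.095 to 0.040 in the mean of the lines. Same-numbered libraries did not deviate together, with all 3 correlations over 0.1 in 1 of 28 pairs of groups; with the replicate number as a block 21 members were called at 4 h and 40 at 48 h. The number of 3 libraries per group limits small differences.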

Other observations

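The nuclear exosome, the complex that trims and destroys RNA including the spacers of the rRNA precursor, was counted in the same comparisons. Of its 14 genes, 0 were higher and 5 lower at 48 h of INC424 than in DMSO (median log2 -0.34), where 16.4% of all genes were lower. At 4 h 0 were higher and 2 lower (median -0.04), where 3.49% of all genes were lower. Without CYT387 library 2, 8 were lower at 48 h and 3 at 4 h, where 21.5% and 6.84% of all genes were. EXOSC2, a cap subunit, averaged 1381 ± 69.0 at 48 h and 2066 ± 57.5 at 4 h, against 2663 ± 106 in DMSO (SD, n = 3 each), with a log2 difference of -0.95 ± 0.10 at 48 h (limma adjusted p = 1.97e-07). MPHOSPH6, an exosome-associated protein, was at -1.35 ± 0.34 (adjusted p = 0.0035). In DMSO against naive cells 0 of the 14 were higher and 2 lower, EXOSC5 at -0.76 and EXOSC8 at -0.50. Over all genes 11.4% were higher and 14.6% lower in that comparison, so the lower count was near the share of all genes.

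Among the libraries that were run again, the median member difference from DMSO was -0.92 at 48 h (1 library against 2). At 4 h it was -0.51 (2 against 2). Among the others it was -0.98 at 48 h (2 against 1) and -0.61 at 4 h (1 against 1). No naive library was run again. Among the libraries run once, DMSO against naive cells had a median of 0.53, from 1 DMSO library against 3 naive ones.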
